A study of Homo sapiens with 6 samples.

Results

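The small Cajal body RNAs (scaRNAs) with the most reads were examined in nascent RNA from cells with and without the 3′ exonuclease TOE1. Of 142 RNAs in the deposited table, 16 had a name starting with SCARNA, and the 10 with the highest read totals over all libraries were selected on that total: SCARNA12, SCARNA10, SCARNA2, SCARNA20, SCARNA22, SCARNA11, SCARNA4, SCARNA5, SCARNA8 and SCARNA6. These 10 held 3360 of the 3582 scaRNA reads, and 1.13% of all reads. Because they were chosen by read totals, their levels are given as a description. SCARNA6, the last one inside, had 67 reads, and SCARNA21, the first one outside, had 50.

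All 6 libraries came from 1 derivative of HEK 293T-REx, a human embryonic kidney line, in which TOE1 carries a degron. The groups were 3 libraries labelled TOE1+ and 3 labelled TOE1-. Per the labels' protocols, depletion used indole-3-acetic acid, an auxin, at 600 µM over 8 hours, and newly made RNA was marked by ethynyl uridine at 0.2 mM over the same time. Gel-purified RNA of 100 to 500 nt was ligated to an adaptor at its 3′ end, so that the end of each read marks the end of an RNA. Adaptor AG10 served for every TOE1-present library and for replicate 1 of the depleted group, and adaptor AG11 for the other 2 depleted libraries, so adaptor and group partly coincide. The table holds small RNAs only, so neither the loss of TOE1 nor the cell type was checked here. The labels do not say whether the replicates are separate cultures, so p-values speak only for the spread between the 6 libraries, and that spread may be technical. Whether the TOE1+ cells received a mock treatment is not stated either.

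scaRNAs guide the chemical modification of the spliceosomal snRNAs in Cajal bodies. Those with C and D boxes direct 2′-O-methylation, those with H and ACA boxes direct pseudouridylation, and some carry both kinds of domain. Most lie in introns and are released from the spliced intron by exonucleases that stop at the bound protein core. Short oligo(A) tails are added to the 3′ ends of such precursors and trimmed again during maturation, and TOE1 belongs to the same family of deadenylase-like 3′ exonucleases as PARN, which trims H/ACA RNAs.

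The 3′ ends of the 10 scaRNAs fell into 2 kinds by sequence, and these ends are shown because every end and tail measurement below refers to them. Each line gives the last 30 bases of the annotated RNA and the next 15 bases of the genome, 45 in all, 5′ to 3′ on hg38. Capitals mark CTGA, the letters of box D, where it lies in the last 10 bases, and otherwise ACA followed by 2 to 4 bases, the place of the ACA box.
SCARNA12: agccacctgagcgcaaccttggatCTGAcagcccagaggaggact
SCARNA10: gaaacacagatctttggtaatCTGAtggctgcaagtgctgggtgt
SCARNA2: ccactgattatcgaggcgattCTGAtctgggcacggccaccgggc
SCARNA5: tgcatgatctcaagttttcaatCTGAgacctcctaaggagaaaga
SCARNA6: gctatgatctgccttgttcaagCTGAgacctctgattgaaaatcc
SCARNA20: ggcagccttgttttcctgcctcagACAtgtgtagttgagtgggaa
SCARNA22: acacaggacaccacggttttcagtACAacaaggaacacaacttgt
SCARNA11: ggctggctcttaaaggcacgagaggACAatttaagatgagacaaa
SCARNA4: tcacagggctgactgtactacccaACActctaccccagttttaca
SCARNA8: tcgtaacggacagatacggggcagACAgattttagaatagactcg
SCARNA12, SCARNA10, SCARNA2, SCARNA5 and SCARNA6 had CTGA near the end, and SCARNA20, SCARNA22, SCARNA11, SCARNA4 and SCARNA8 had ACA. Only the RNA strand was searched. Of the 141 rows of the table with an annotated end, 24 (17.0%) had CTGA there and 75 (53.2%) had ACA. Among the 65 H/ACA snoRNA rows the counts were 2 and 59, and among the 19 C/D snoRNA rows 12 and 2. In SCARNA22 alone of the 10 the first genome base after the annotated end was A, as in 32 of the 141 rows. At that end a templated A and an added one cannot be told apart. If the median ends given below leave out the tail, the same holds for SCARNA4 (1 nt) and SCARNA11 (2 nt), where A comes next. On that reading C comes next at the median end of SCARNA22 (7 nt), so there the limit concerns reads that stop at the annotated end.

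The CTGA-ended RNAs were the longer ones. SCARNA2, a C/D RNA that guides methylation of U2 and is transcribed from its own promoter, spans 420 nt at chr1:109100193-109100612 on the plus strand, inside a same-strand lncRNA model. SCARNA10 (330 nt, chr12:6510222-6510551, plus strand, with no base in an exon of NCAPD2) and SCARNA12 (270 nt, chr12:6967337-6967606, minus strand, in PHB2) are composite C/D and H/ACA guides of U5. So are SCARNA5 (276 nt, chr2:233275727-233276002) and SCARNA6 (265 nt, chr2:233288676-233288940), which both lie on the plus strand in introns of ATG16L1. SCARNA5 and SCARNA6 shared 175 of 283 aligned positions (61.8%), the highest identity of any pair among the 10. All 270 bases of SCARNA12 fall in an exon of at least 1 annotated PHB2 transcript.

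The ACA-ended RNAs were 125 to 136 nt long. SCARNA22 (chr4:1974636-1974760, plus strand) lies in NSD2, wholly within an exon of at least 1 of its transcripts. The others are intronic on the strand of their host: SCARNA8 (ENSG00000251733, chr9:19063656-19063786, minus strand) in HAUS6, SCARNA20 (chr17:60231516-60231646, minus strand) in USP32, SCARNA11 (chr12:6581474-6581609, minus strand) in CHD4 and in a further protein-coding model, and SCARNA4 (chr1:155925958-155926085, minus strand) in KHDC4. SCARNA4 and SCARNA8 guide pseudouridylation of U2. The SCARNA4 row merges 2 gene models that differ by 1 base at the 5′ end. TGAG, the letters of the CAB box that retains H/ACA scaRNAs in Cajal bodies, occurred at least once in 8 of the 10. It occurred in 25 of 65 H/ACA snoRNA rows and in 78 of 141 rows in all, with median lengths of 200.5, 134 and 134 nt. Among the C/D snoRNA rows, with a median length of 95 nt, 17 of 19 had it, so these letters are not particular to scaRNAs. In SCARNA5 and SCARNA6 a TGAG overlaps the CTGA near the end. SCARNA20 and SCARNA11 had no such letters. SCARNA8, the only 1 of the 10 whose abundance change passed the test below, is shown whole, with its single TGAG in capitals.
SCARNA8: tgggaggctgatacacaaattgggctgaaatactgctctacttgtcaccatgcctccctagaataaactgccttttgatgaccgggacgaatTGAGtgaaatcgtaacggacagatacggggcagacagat

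The libraries held 34581 to 57078 reads with TOE1 and 32813 to 75353 without it. The 10 scaRNAs took 0.876% to 1.13% of the reads with TOE1 and 1.05% to 1.40% without it. The RNAs of the signal recognition particle took 32.0% to 43.2% of the reads with TOE1 and 19.9% to 30.4% without it. Levels were therefore scaled with TMM factors, which ran from 0.764 to 0.957 with TOE1 and from 0.931 to 1.44 without it, and are given as CPM, the count scaled to a common library size. Replicate 1 of both groups stood apart in the reads of some gene models of RMRP, 7SK and U2, none of them a scaRNA.

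SCARNA12 and SCARNA10 were the most abundant in every library. SCARNA12 stood at 3827 ± 589 CPM with TOE1 (SD, n = 3) and SCARNA10 at 3553 ± 560 CPM (SD, n = 3), and their ranges overlapped. SCARNA2 came next, at 1740 ± 305 CPM. SCARNA20, SCARNA22, SCARNA4 and SCARNA5 followed, at 652, 646, 556 and 529 CPM, and the ranges of neighbours in this order overlapped. SCARNA11, at 437 ± 18.8 CPM, lay below the range of SCARNA5. SCARNA6 and SCARNA8 were lowest, at 244 ± 85.1 and 226 ± 40.4 CPM, and overlapped. Divided by annotated length, SCARNA12 and SCARNA10 kept the first ranks, with mean levels over the 6 libraries of 1320 and 894 CPM per 100 nt. SCARNA2 then moved from rank 3 to rank 8 with 303 CPM per 100 nt. Each read marks the end of an RNA, whatever its length, so the undivided CPM, not these ranks, stand for the levels.

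**Figure D1:**
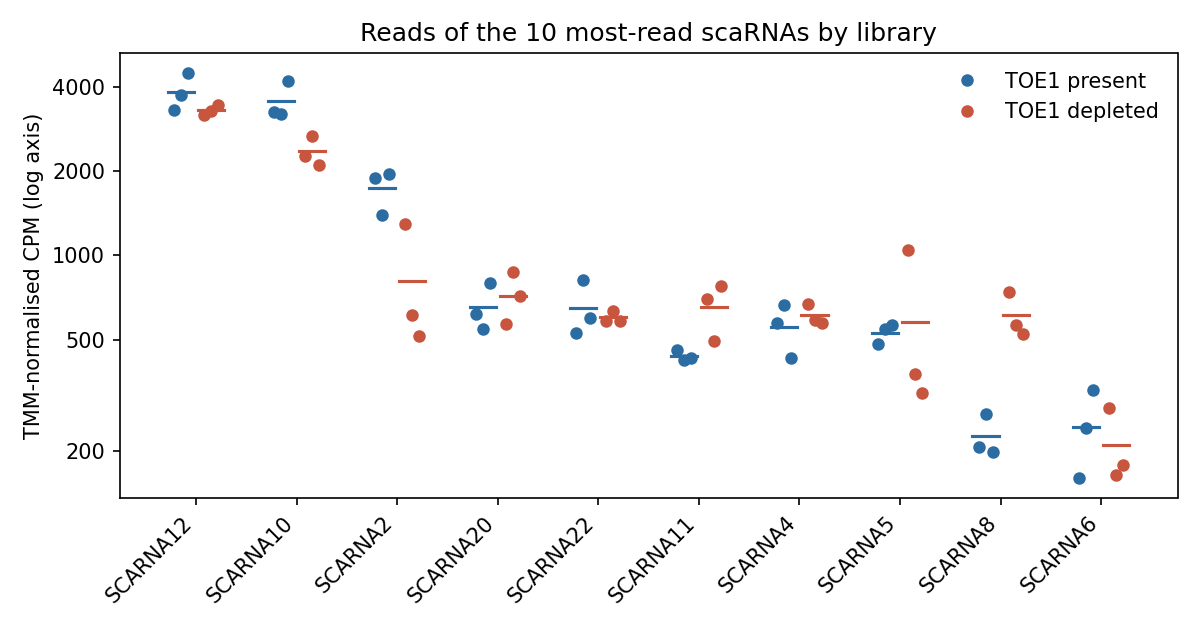
TMM-normalised CPM of each of the 10 scaRNAs (horizontal axis) on a log axis, with 1 point per library, 3 libraries per group, and a line at the group mean. The points of SCARNA8 and SCARNA11 are higher without TOE1 and those of SCARNA10 and SCARNA2 lower, with no overlap; in the other 6 the groups overlap.

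The first comparison asked whether the amount of each scaRNA among nascent small RNAs changed on TOE1 depletion. SCARNA8 rose, and none of the other 9 passed the test. With edgeR's quasi-likelihood test and Benjamini-Hochberg adjustment over 101 RNAs, 1 of the 10 was called, beside 8 of 101 RNAs (7.92%) over the table, 5 higher and 3 lower. That split was 4 higher and 8 lower with DESeq2 size factors, and 23 higher and 0 lower with library totals alone. At an unadjusted p under 0.05 there were 4 of the 10, against 27.7% of all tested RNAs. The groups did not overlap in 2 scaRNAs that were higher without TOE1, beside 16.8% of all tested RNAs, and in 2 that were lower, beside 14.9%. The median log2 change of the 10 was 0.014, with 5 above 0, and that of all tested RNAs 0.08, with 60 of 101 above 0. With library totals alone 8 of the 10 were above 0, beside 88 of 101 tested RNAs, and these medians were 0.51 and 0.63.

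SCARNA8 had 206, 272 and 198 CPM in the TOE1-present libraries and 741, 563 and 525 CPM in the TOE1-depleted ones. Each depleted library lay above each TOE1-present one. These levels rest on 9, 9 and 6 reads with TOE1 and on 52, 24 and 44 without it. The mean went from 226 ± 40.4 to 610 ± 115 CPM (SD, n = 3 per group), a log2 change of 1.43 ± 0.28 SE (95% interval 0.77 to 2.10, edgeR adjusted p = 0.0348). Within the AG10-ligated libraries, 3 against 1, the log2 change was 1.68 with an edgeR adjusted p of 0.114. With any 1 library left out it was 1.24 to 1.55, with edgeR adjusted p between 0.0742 and 0.117. Leaving out any single library of either group thus ended the call, and the direction stayed.

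SCARNA10 had 3255, 3204 and 4199 CPM with TOE1 and 2267, 2675 and 2101 CPM without it, from 106 to 176 reads a library. All TOE1-depleted libraries were lower. The log2 change was −0.60 ± 0.15 SE (95% interval −0.95 to −0.25), and it just missed the threshold (edgeR adjusted p = 0.0508). With the replicate number as a block it passed, at −0.60 with an edgeR adjusted p of 0.0273. In the AG10 libraries alone the value was −0.67 (edgeR adjusted p = 0.224). With DESeq2 size factors it passed, at −0.65 (edgeR adjusted p = 0.0277), and with library totals alone it was −0.05 (edgeR adjusted p = 0.877). Another gene model inside SCARNA10 on the same strand, AC006064.5, held 0, 12 and 0 reads with TOE1 and 0, 2 and 6 without it, few beside those of SCARNA10.

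For SCARNA2 the TOE1-present libraries stood at 1880, 1390 and 1951 CPM and the TOE1-depleted ones at 1298, 610 and 513 CPM. The groups did not overlap, and both AG11-ligated libraries, at 610 and 513 CPM, were lower than the AG10-ligated one. The log2 change was −1.10 ± 0.37 SE (95% interval −1.98 to −0.22, edgeR adjusted p = 0.106). It was −0.45 within the AG10 libraries (edgeR adjusted p = 0.304) and −1.67 without TOE1-depleted replicate 1 (edgeR adjusted p = 0.0231). With the replicate block it passed, at −1.16 (edgeR adjusted p = 0.0102). The part of the adaptor in this difference cannot be told apart from that of the depletion in the AG11 libraries.

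SCARNA11 had 458, 423 and 430 CPM with TOE1 and 699, 493 and 776 CPM without it, higher in 3 of 3 depleted libraries. Its log2 change was 0.60 ± 0.24 SE and did not pass (edgeR adjusted p = 0.166). With library totals alone it passed, at 1.15 (edgeR adjusted p = 0.0302).

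The composite guide SCARNA5 had the largest error of the 10. With TOE1 it had 481, 544 and 562 CPM, and without it 1041 CPM in the AG10-ligated library and 375 and 322 CPM in the AG11-ligated ones. The single AG10 library lay above all TOE1-present libraries and both AG11 libraries below them. The log2 change was 0.16 ± 0.50 SE over all libraries (edgeR adjusted p = 0.941) and −0.62 without TOE1-depleted replicate 1 (edgeR adjusted p = 0.210). Within the AG10 libraries, 3 against 1, it was 0.96 ± 0.20 SE (edgeR adjusted p = 0.126), so the direction differed with the libraries used. SCARNA6, in the same host gene, differed by −0.16 ± 0.40 SE (edgeR adjusted p = 0.904), with libraries at 160, 242 and 331 CPM with TOE1 and 285, 164 and 179 CPM without it. For SCARNA6, too, the AG10-ligated depleted library was the highest of its group.

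For the remaining 4 the 95% interval included 0. SCARNA12 had 3301, 3718 and 4464 CPM with TOE1 and 3165, 3285 and 3450 CPM without it, a log2 change of −0.21 (95% interval −0.53 to 0.11). SCARNA20 ran from 544 to 794 CPM with TOE1 and from 570 to 868 CPM without it. SCARNA22 ran from 527 to 816 and from 585 to 633 CPM, and SCARNA4 from 430 to 665 and from 573 to 670 CPM. In all 4 the groups overlapped. SCARNA20, SCARNA22 and SCARNA4 differed by 0.13 (−0.45 to 0.71), −0.10 (−0.62 to 0.43) and 0.13 (−0.40 to 0.65) on the log2 scale. These intervals leave room for changes of up to 0.71 in size. With library totals alone SCARNA12, SCARNA22 and SCARNA6 turned to values above 0.

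**Figure D2:**
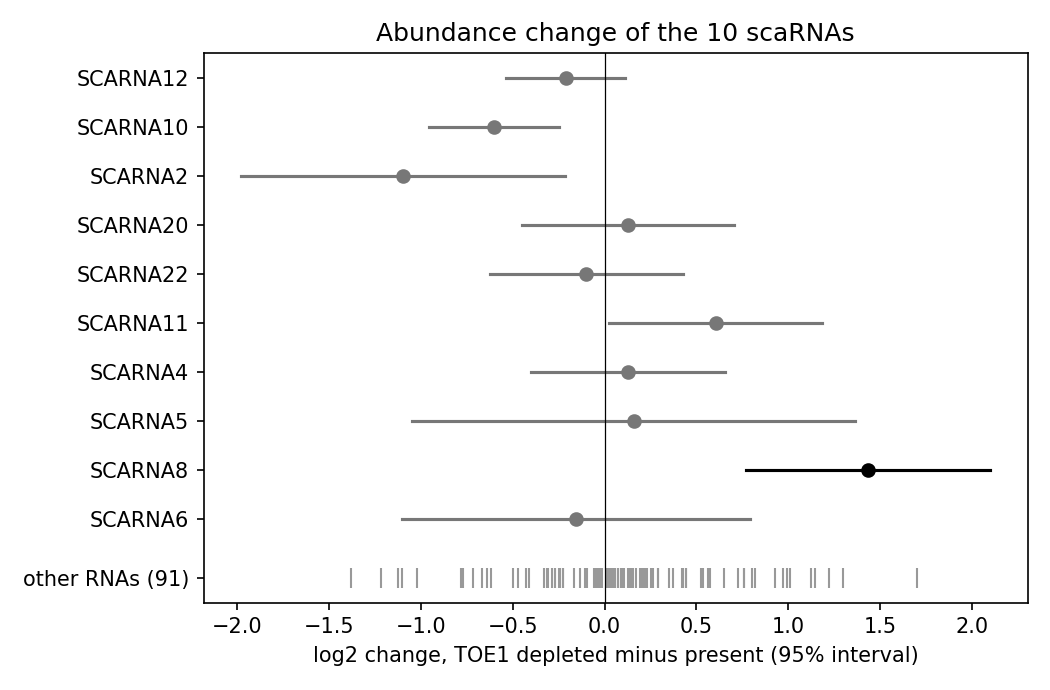
Log2 abundance change (TOE1 depleted minus present, horizontal axis) of each of the 10 scaRNAs, as points with 95% intervals, and of the other 91 tested RNAs as grey ticks. SCARNA8 at 1.43, in black, is the one that passed the adjusted threshold; the intervals of SCARNA10, SCARNA2 and SCARNA11 leave out 0 without passing it.

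The second comparison asked whether the 3′ ends moved. Position 0 was taken to be the annotated end, and positive positions lie downstream. In TOE1-present cells the median end lay at 0 or 1 nt in SCARNA12, SCARNA10, SCARNA2, SCARNA20, SCARNA4, SCARNA5, SCARNA8 and SCARNA6, at 2 nt in SCARNA11 and at 7 nt in SCARNA22 in the authors' deposited table. The mean end ran from 0.456 nt in SCARNA2 to 6.36 nt in SCARNA22 in the authors' deposited table, against a median of 1.19 nt over all 142 rows. SCARNA21, the next scaRNA by reads, also had its median end at 7 nt in the authors' deposited table. The table headers do not say whether the untemplated tail counts in these control positions.

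None of the 10 scaRNAs had a 3′ end that passed the adjusted threshold on TOE1 depletion, for the genome-templated end or for the total end with its tail. Over the table, 3 of 139 RNAs (2.16%) passed for each of these ends. Adjusted p, by Benjamini-Hochberg over 139 RNAs, ran from 0.284 to 0.938 for the genome-templated end of the 10 and from 0.557 to 0.952 for the total end. By limma's moderated test, too, 0 of the 10 passed for either end. The genome-templated end lay further upstream in 8 of 10 without TOE1 and in 88 of 142 rows in all, with median differences of −0.149 and −0.106 nt in the authors' deposited table. For the total end 5 of 10 were upstream, against 87 of 142.

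At an unadjusted p under 0.05 the genome-templated end held 3 of the 10, beside 12.9% of all RNAs, and the total end 0, beside 7.91%. SCARNA2 differed by −0.906 nt, further upstream without TOE1, by the authors' deposited table, with a 95% interval from −1.63 to −0.179 nt and an adjusted p of 0.284, on 187 reads with TOE1 and 160 without it. For SCARNA4 the authors' deposited table gave −1.01 nt (95% interval −1.82 to −0.192 nt, adjusted p = 0.284), on 60 and 120 reads. For SCARNA20 it was 0.635 nt, further downstream, by the authors' deposited table, with an interval from 0.0779 to 1.19 nt and an adjusted p of 0.338, on 69 and 137 reads. A CTGA-ended RNA and an ACA-ended one thus had the upstream values, and an ACA-ended one the downstream value. No library-level ends were analysed here, so none of these differences has a value within AG10 libraries.

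SCARNA12, with the most reads, differed in the authors' deposited table by −0.0643 nt (−0.633 to 0.505 nt) for the genome-templated end and by −0.205 nt (−1.39 to 0.979 nt) for the total end. SCARNA10 differed by −0.367 nt and 0.253 nt for these ends in the authors' deposited table. SCARNA8, whose abundance rose, differed by −0.0547 nt (−0.981 to 0.872 nt) for the genome-templated end in the authors' deposited table. SCARNA5 had the widest error, with 1.06 nt (−1.75 to 3.87 nt) for the genome-templated end in the authors' deposited table. By the authors' deposited table SCARNA22, SCARNA11 and SCARNA6 lay at −0.231, −0.0678 and −0.253 nt, and their intervals included 0. The table's other p is from a Kolmogorov-Smirnov test, taken here to treat pooled reads as replicates, which the headers do not state. That p, once adjusted, called SCARNA12, SCARNA10, SCARNA2 and SCARNA4 for the total end, beside 17.0% of all RNAs. For the genome-templated end it called SCARNA2, beside 9.22%.

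**Figure D3:**
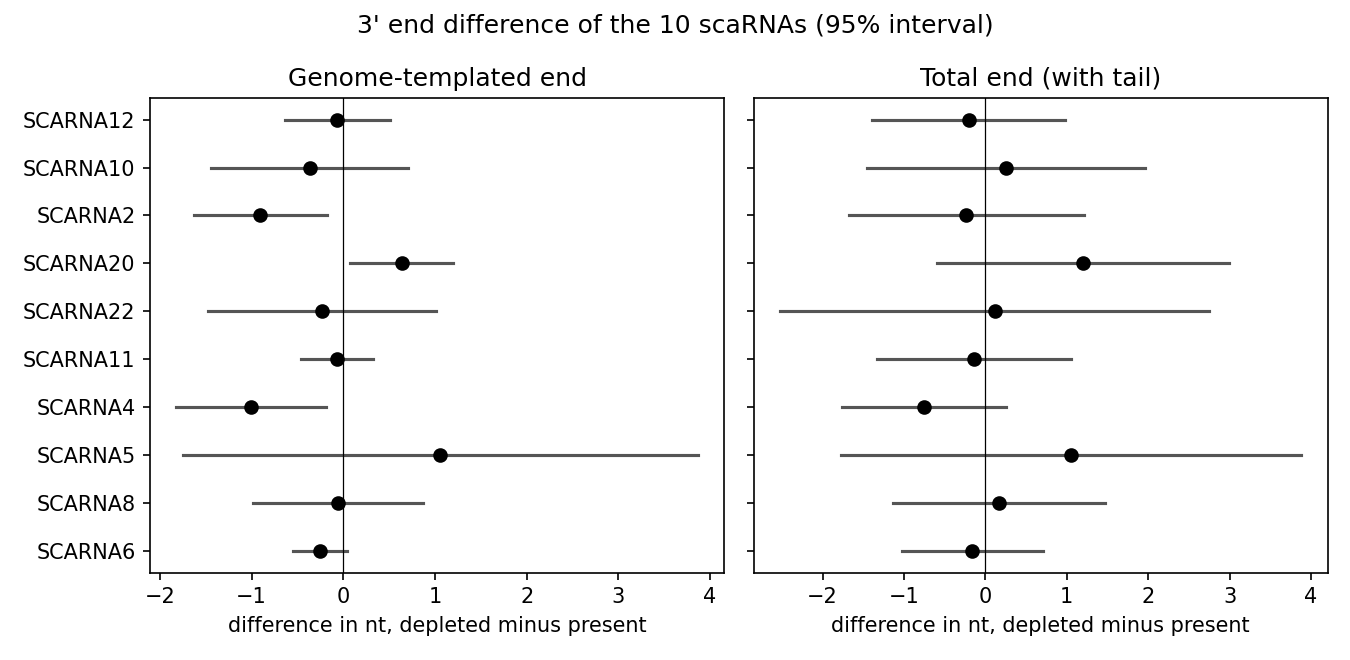
Difference of the genome-templated end (left) and of the total end with its tail (right), in nt, TOE1 depleted minus present, for each of the 10 scaRNAs. Points are the authors' deposited differences and lines the 95% intervals recovered from the deposited p; on the left the intervals of SCARNA2, SCARNA4 and SCARNA20 leave out 0, and on the right every interval includes it.

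The third comparison concerned untemplated tails. The 4 highest shares of longer A tails were those of ACA-ended scaRNAs. In TOE1-present cells reads with 2 or more added A made up 30.1% in SCARNA20, 21.9% in SCARNA22, 19.1% in SCARNA11 and 5.41% in SCARNA4 in the authors' deposited table, with SCARNA8 between SCARNA11 and SCARNA12. In the CTGA-ended guides they made up 12.6% in SCARNA12, 8.84% in SCARNA5, 3.28% in SCARNA10, 0.813% in SCARNA2 and 0% in SCARNA6 in the authors' deposited table. The 2 sets overlap, with SCARNA4 below SCARNA12 and SCARNA5, and their difference was not tested. The limit on telling templated from added A in SCARNA22, SCARNA11 and SCARNA4, given with the end sequences, applies to their A shares here and below. Over all 142 rows the median share was 0.864%, and over the 65 H/ACA snoRNA rows it was 1.39%, in the authors' deposited table. SCARNA8 and SCARNA6 rest on 24 and 25 reads in the 3 TOE1-present libraries together. Their tail shares there are therefore coarse, and so is the place of SCARNA8 above SCARNA12.

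The share of reads ending in a single added A was lower without TOE1 in all 10 scaRNAs, and none passed the test, as over the table (0.0%). The share of reads with exactly 1 A went from 25.1% to 11.5% in SCARNA12, from 22.1% to 9.03% in SCARNA10 and from 15.7% to 6.23% in SCARNA2 in the authors' deposited table. Of the 10, SCARNA4 had the largest difference by the authors' deposited table, from 37.9% to 9.42% (95% interval −58.8 to 1.89 percentage points, adjusted p = 0.232). SCARNA8, on few reads, had the smallest difference in the authors' deposited table, from 5.56% to 4.71%. The median difference of the 10 was −8.96 percentage points, and that of all 142 rows, of which 104 were lower and 21 higher, was −7.48 percentage points in the authors' deposited table. None of the 10 had an unadjusted p under 0.05, where 19.5% of all RNAs did. Most RNAs of the table thus had the direction of the 10, and the part of adaptor AG11 in it was not tested.

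With all A tails counted together, 8 of the 10 scaRNAs had a lower share without TOE1, beside 101 of 142 rows. At an unadjusted p under 0.05 there was 1 of the 10, beside 21.1% of all RNAs, and no RNA passed the adjusted threshold (0.0%). SCARNA12 was that one: by the authors' deposited table the share of its reads with an A tail went from 37.7% to 18.0% (95% interval −38.3 to −1.24 percentage points, adjusted p = 0.214). The other 4 CTGA-ended guides were lower as well, SCARNA10 going from 25.4% to 9.72%, SCARNA2 from 16.5% to 8.28%, SCARNA5 from 30.7% to 20.8% and SCARNA6 from 33.2% to 14.3% in the authors' deposited table. Of the ACA-ended RNAs, SCARNA4 went from 43.3% to 12.9%, SCARNA11 from 35.7% to 24.5% and SCARNA8 from 18.5% to 14.2% in the authors' deposited table.

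SCARNA20 and SCARNA22 went the other way. By the authors' deposited table their A-tailed shares stood at 37.2% and 37.3% with TOE1, and at 46.3% (adjusted p = 0.530) and 40.4% (adjusted p = 0.829) without it. In both, single-A tails had a lower share without TOE1 and longer tails a higher one. In the authors' deposited table tails of 3 or more A stood at 26.2% and 39.7% of SCARNA20 reads with and without TOE1 (95% interval −7.02 to 33.9 percentage points, adjusted p = 0.526). For SCARNA22 they stood at 14.0% and 21.5% in the authors' deposited table (−8.99 to 24.0 percentage points, adjusted p = 0.565). SCARNA2 also had a higher share of these tails, at 0.407% and 2.06% in the authors' deposited table, and 6 of the 10 were lower. None of the 10 passed the adjusted threshold, beside 1.37% of the RNAs with such tails. SCARNA20 carried 1.55 added A per read with TOE1 and 2.08 without it, and SCARNA22 2.07 and 2.50, the highest of the 10, by the authors' deposited table.

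**Figure D4:**
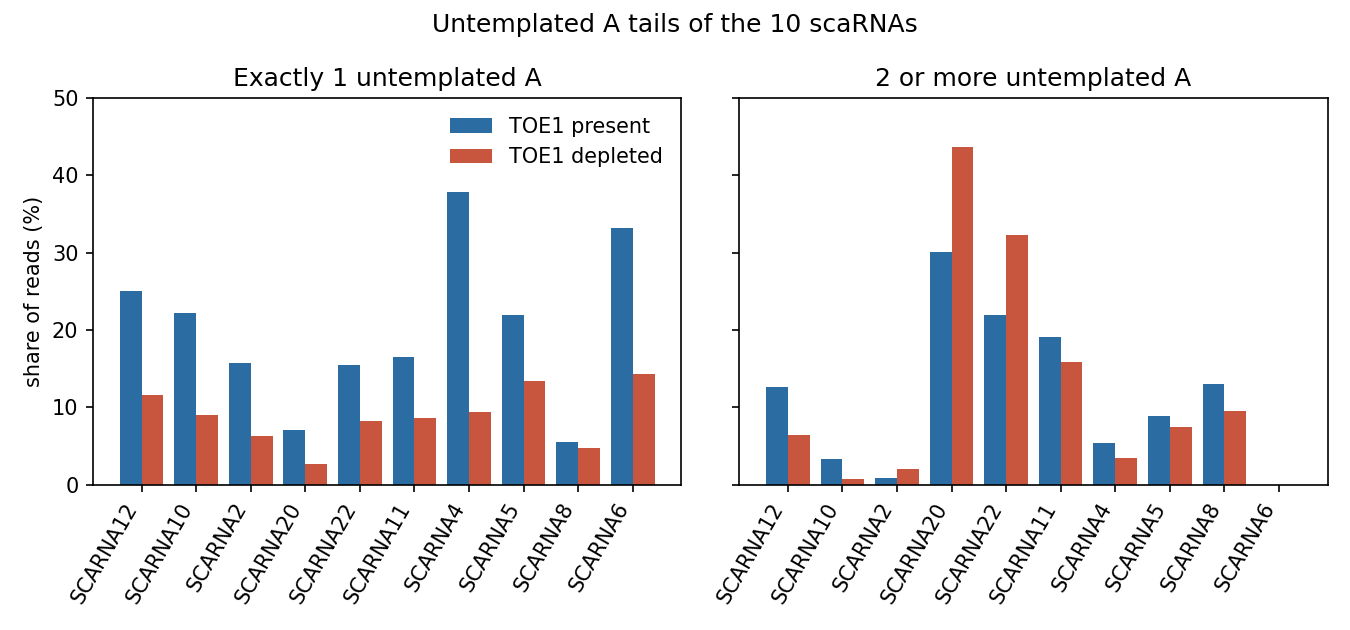
Share of reads (%, vertical axis from 0) with exactly 1 untemplated A (left) and with 2 or more (right) in each of the 10 scaRNAs, blue with TOE1 and red without it, from the authors' deposited table, which gives no error per group. On the left all 10 red bars are lower; on the right SCARNA20 and SCARNA22 have the highest bars, 30.1% and 21.9% with TOE1, and higher red bars.

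Tail bases other than A were also counted, and most of the 10 had more of them without TOE1. Added U bases were higher in 8 of 10, C bases in 7 and G bases in 9, beside 70, 73 and 84 of 142 rows, in the authors' deposited table. None passed the adjusted threshold, beside 0.787% of all RNAs for U and 0.0% for C and G. By the authors' deposited table SCARNA10 went from 0.123 to 0.365 U per read (adjusted p = 0.503) and from 0.220 to 0.517 G per read (adjusted p = 0.714). SCARNA2 went from 0.110 to 0.236 U per read (adjusted p = 0.503) by the authors' deposited table. For SCARNA4 the authors' deposited table gave 0 and 0.0976 C per read (adjusted p = 0.786) and 0.0303 and 0.285 G per read (adjusted p = 0.597). Pure U tails were listed at 0 with TOE1 for all 10 in the authors' deposited table. The total end adds the tail to the genome-templated end, and SCARNA2 stood at −0.906 nt for the latter and at −0.233 nt for the former in the authors' deposited table.

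The 10 scaRNAs were set beside the 65 H/ACA and 19 C/D snoRNA rows, lists with a single kind of box each. The composite guides SCARNA10, SCARNA12, SCARNA5 and SCARNA6 carry both kinds, so neither list has their architecture. The C/D rows had a median annotated length of 95 nt, under the 100 nt lower bound of the gel cut, and the 10 scaRNAs 200.5 nt. How this size selection bears on the C/D values was not tested. The median log2 abundance change was 0.13 for the H/ACA and 0.23 for the C/D snoRNAs that were tested. The median difference of the genome-templated end was −0.212 nt for H/ACA and −0.200 nt for C/D snoRNAs, with 47 of 65 and 12 of 19 upstream, in the authors' deposited table. The median share of A-tailed reads with TOE1 was 34.4% in the 10 scaRNAs, 20.2% in the H/ACA and 13.9% in the C/D snoRNAs in the authors' deposited table. Without TOE1 these medians were 16.1%, 8.71% and 6.60%. In the authors' deposited table the 6 scaRNAs outside the 10 had medians of 18.1% with TOE1 and 10.3% without it. They had at most 50 reads each. Their genome-templated end differed by a median of 0.176 nt, with 3 of 6 upstream, in the authors' deposited table. No test of the differences between these lists was made.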

How the data were processed

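The authors deposited 1 table of 142 RNAs. It gives, per the file headers, raw counts of reads in each of the 6 libraries. The authors' end positions, their differences (TE, GE) and added bases per read are in nt, used here as scores on that scale within a window from −10 to 50 nt, per the file headers. Tail shares were deposited as a fraction of reads, printed here as percent. Each difference has a deposited p-value from the authors. The difference between TE and GE matched the sum of the changes in tail bases in all 142 rows, with a tolerance of 1e-06 nt, and on this ground TE stands for the total and GE for the genome-templated end. TOE1-depleted shares are the control value plus the deposited difference. The headers do not say whether A shares include mixed tails. Per the submitters' processing notes, STAR 2.7.8a and hg38 were used; which annotation was used, and how reads with several positions or molecular identifiers were treated, is not given in the sources used here.

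Counts were tested with edgeR 4.0.16 (TMM, filterByExpr, quasi-likelihood), with DESeq2 1.42.0 as an alternative, and all 10 scaRNAs passed the filter. Deposited p-values were adjusted by Benjamini-Hochberg over all RNAs that had one, with a threshold of 0.05. The 95% intervals were recovered from difference and p, assuming a pooled-variance test on library means; limma 3.58.1 gave moderated variances as an alternative. The edgeR script was tested on simulated data. Sequences and coordinates are from hg38 with GENCODE 44, 1-based, where 189 of 190 identifiers matched. Named are the 10 scaRNAs and the first one outside, with any row overlapping them; SCARNA3 and SCARNA7 were added after their values were seen. Members and lists were chosen with earlier results of these data known.

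Same-numbered libraries deviated together (Pearson r over 101 RNAs of 0.907, 0.258 and 0.807), so blocked values stand beside results they change. Different numbers also did, at 0.811 for TOE1-present 3 with depleted 2 and 0.275 for present 2 with depleted 3, so only replicate 1 stood apart. Without 5 rows of the RMRP, 7SK and U2 families the r were 0.0205, 0.00627 and 0.146, so this pairing rests on those rows.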

Additional observations from a re-analysis of the deposited data

How the results depend on the processing

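The count of called scaRNAs was small and moved with most settings. From 1 of 10, SCARNA8, it went to 2 with DESeq2 size factors, with library totals alone and with scaling free of the 5 most-read RNAs, to 3 with the DESeq2 Wald test and with the replicate block, and to 0 in the AG10 libraries alone. With 1 library left out it was 0 to 1. SCARNA10 joined SCARNA8 under both alternative size-factor scalings, SCARNA11 did under library totals, and SCARNA10 and SCARNA2 did with DESeq2 and with the block. With both replicate 1 libraries left out, chosen after seeing the data, the only call was SCARNA2. Over all RNAs the calls went from 8 (5 higher, 3 lower) to 23 (all higher) under library totals, 12 (4 higher) under DESeq2 size factors, 11 (4 higher) with scaling free of the 5 most-read RNAs, 15 (3 higher) with DESeq2, 18 (8 higher) with the block, 5 with no filter, 4 without both replicate 1 libraries and 0 in AG10 libraries. Left-out libraries gave 0 to 2. The Kolmogorov-Smirnov p called 1 scaRNA for the genome-templated and 4 for the total end, where the main count was 0.

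Some signs turned. Under library totals the log2 changes were 0.35 for SCARNA12, 0.43 for SCARNA22 and 0.34 for SCARNA6. In AG10 libraries they were −0.21 for SCARNA20 and 0.25 for SCARNA6, and without both replicate 1 libraries −0.68 for SCARNA5. With 1 library left out the ranges were −0.021 to 0.25 for SCARNA20, −0.29 to 0.057 for SCARNA22, −0.043 to 0.22 for SCARNA4, −0.62 to 0.50 for SCARNA5 and −0.18 to 0.079 for SCARNA6. The causes were not tested. SCARNA8 stayed above 0 in all 14 alternatives, 1.19 to 1.94. SCARNA6 passed the filter in 3 of the 6 fits with a library left out. Ends and tails were used as values per group, so no library could be left out there, and no adaptor or replicate block could be fitted.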

Other observations

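None of the 6 scaRNAs outside the 10 passed the filter on low counts. SCARNA3, singled out after its values were seen, had 1, 1 and 1 reads with TOE1 and 12, 4 and 13 without it. In a fit with no filter its log2 change was 2.22 ± 0.52 SE and did not pass (edgeR adjusted p = 0.0634). SCARNA7, a C/D guide also singled out after its values were seen, had 11, 7 and 4 reads with TOE1 and 11, 3 and 6 without it, a log2 change of −1.04 ± 0.47 SE in the same fit (edgeR adjusted p = 0.250).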
